A study of Mus musculus with 12 samples.

Results

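The 50 genes described here are a fixed list of mouse cell cycle and DNA replication genes. The list was chosen by name, with earlier results of these data known. Its genes are 50 of the 55367 genes in the count table, and all 50 were found there by symbol. They were measured by RNA sequencing of whole blood after ribosomal RNA depletion. Every mouse was of the CB17-SCID strain, which lacks mature B and T cells, and carried a xenograft of HT1376 cells, a line from human bladder cancer. Treatment lasted 11 days, with vehicle in 1 group and CPI0209 in the others, at 35 mg per kg (mpk in the labels) by mouth once a day. CPI0209 is an inhibitor of the histone methyltransferases EZH2 and EZH1. Blood of treated mice was taken 1 h, 6 h or 24 h after the last dose, so the 12 libraries form 4 groups of 3 named vehicle, 1 h, 6 h and 24 h. The labels give neither the age of the mice nor the hour at which vehicle mice were bled. They do not say whether replicates were separate animals, so p-values measure the spread between these samples, which may be technical.

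A dividing cell first licenses its origins of replication by loading the MCM helicase, then copies its DNA behind the sliding clamp PCNA, and then separates its chromosomes on a spindle under the control of cyclin-dependent kinases and of a ubiquitin ligase, the anaphase-promoting complex. E2F factors drive many of the replication genes, while MYBL2 and FOXM1 drive many of the mitotic ones. In blood, most circulating cells have left the cell cycle. Reticulocytes, the youngest red cells, have lost their nucleus but still carry RNA made in the dividing erythroblasts of the marrow and, in mice, the spleen.

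The libraries held 6496573 to 9978215 counts, of which the 50 genes took between 0.134% and 0.242%. Levels are given as CPM, the usual depth-scaled count, with library sizes adjusted by the trimmed mean of M values (TMM), and differences as log2 fold changes from edgeR. A gene was called when the Benjamini-Hochberg adjusted p of edgeR's quasi-likelihood test, over 13384 genes, was below 0.05. The 6 h libraries had TMM factors of 0.766 to 0.812, the vehicle libraries 1.03 to 1.12, and the 24 h libraries 0.856 to 1.33. With library totals alone as the scaling, the median log2 fold change of all genes at 6 h against vehicle became -0.50, compared with -0.04. Directions at 6 h are therefore relative to the median gene. Among the 24 h libraries, replicate 1 was lowest in 32 of the 50 genes (64% beside 38.4% of all tested genes) and replicate 3 was highest in 31 (62% beside 36.5%). Markers of B and T cells were near 0, with the B cell genes summing to 0.215 to 4.11 CPM in a library and 6 T cell genes to 0.538 to 5.94 CPM. The 6 NK cell genes summed to 262 to 411 CPM.

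Per kilobase of exon, counting all annotated exons of a gene, 3 genes stood highest in vehicle blood. E2f2, an E2F transcription factor, had 41.1 ± 3.00 CPM per kilobase (SD, n = 3). Nusap1, which binds spindle microtubules, had 39.8 ± 5.49, and Ube2c, the ubiquitin-conjugating enzyme of the anaphase-promoting complex, had 37.4 ± 8.08. These 3 means did not differ beyond the spread of their libraries. Mki67, the source of the Ki-67 proliferation antigen, followed at 26.0 ± 2.78 and Ccnd3, the G1 cyclin D3, at 24.4 ± 2.60. The order depends on the annotated length. In CPM not divided by length, every vehicle library of Mki67 lay above those of E2f2, Nusap1 and Ube2c. Ccnd3 likewise lay above Nusap1 and Ube2c. Those 5 genes together made up 65.5% to 66.1% of the CPM of all 50 genes in the vehicle libraries, 74.1% to 78.1% at 1 h, 77.2% to 79.3% at 6 h and 67.7% to 71.7% at 24 h. The shares at 6 h lay above every vehicle share.

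**Figure D1:**
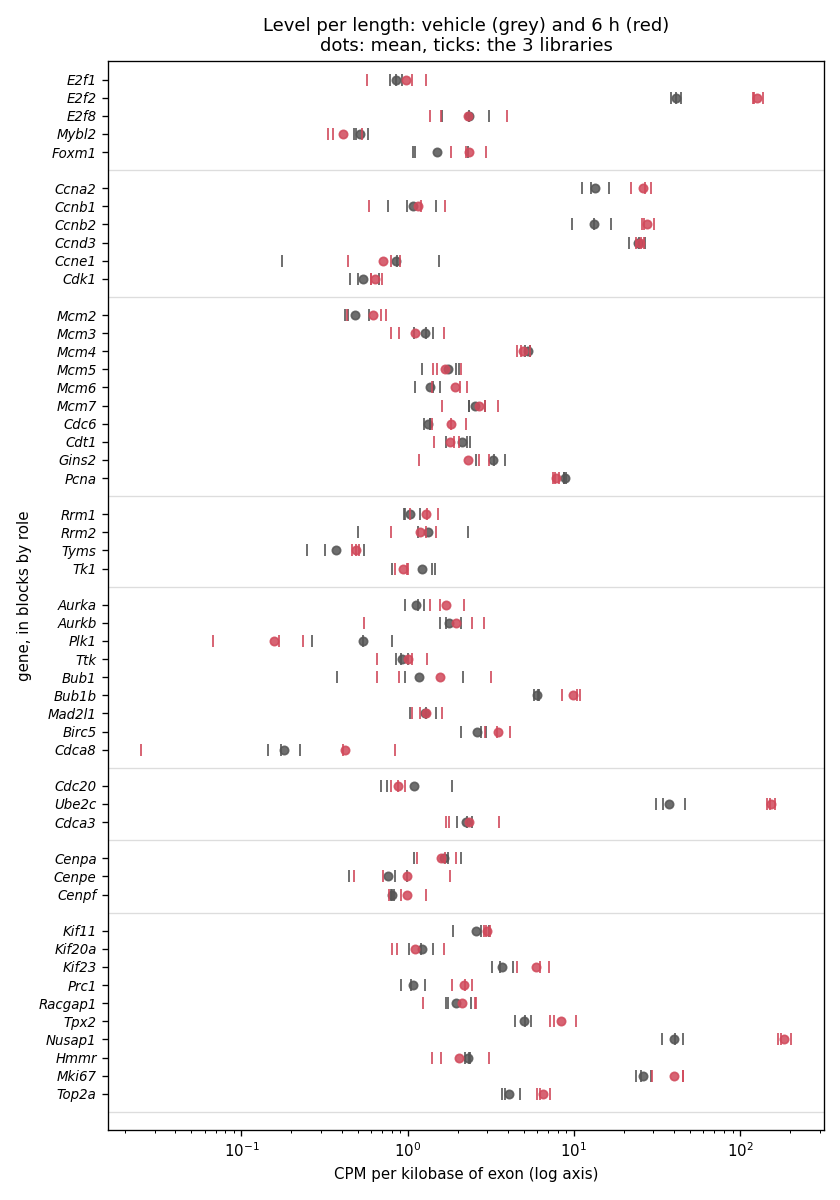
Level of each of the 50 genes in CPM per kilobase of exon on a log axis, in blocks by role, for vehicle (grey) and 6 h (red), with dots for means and ticks for the 3 libraries. E2f2, Nusap1 and Ube2c were the highest in vehicle, and their 6 h values lie to the right of every vehicle value.

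The remaining genes were lower and each role spanned a range. Among transcription factors the lowest per kilobase was Mybl2 at 0.514 ± 0.0550 in vehicle, against E2f2 as the highest. Among cyclins and their kinase, Ccnd3 was the highest and Cdk1, the mitotic kinase itself, the lowest at 0.540 ± 0.116. Among the replication genes Pcna was the highest at 8.78 ± 0.154 and Mcm2, a helicase subunit, the lowest at 0.481 ± 0.0923. Of the 4 enzymes of nucleotide synthesis, Rrm2, a subunit of ribonucleotide reductase, had 1.32 ± 0.913 and thymidylate synthase (Tyms) 0.370 ± 0.154. In mitotic kinases and the spindle checkpoint, Bub1b was the highest at 6.03 ± 0.212 and Cdca8, a partner of the Aurora B kinase, the lowest of all 50 at 0.181 ± 0.0403. Cdc20, an activator of the anaphase-promoting complex, was the lowest of its role at 1.09 ± 0.648. The centromere genes were the histone variant Cenpa at 1.65 ± 0.509, Cenpf at 0.807 ± 0.0156 and the motor Cenpe at 0.756 ± 0.281. Of the spindle and chromosome structure genes, Nusap1 was the highest and Prc1, which bundles midzone microtubules, the lowest at 1.08 ± 0.179.

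E2f2, Nusap1 and Ube2c, the 3 genes called at 6 h, lie on chromosomes 4 and 2. In the GENCODE M21 annotation of GRCm38, E2f2 spans chr4:136172394-136196057 (+), Nusap1 chr2:119618298-119651244 (+) and Ube2c chr2:164769898-164778822 (+). Their promoter windows are printed because the 3 genes moved together, along with that of Ccnb2 (cyclin B2), the next gene by p-value. The windows are RefSeq sequence of build GRCm38.p6, 250 bases before to 50 after an annotated start, on the gene's own strand. They lie at chr4:136172024-136172323 for the first start of E2f2 and chr4:136180532-136180831 for the second, chr2:119618048-119618347 for Nusap1, chr2:164769679-164769978 for Ube2c, and chr9:70421505-70421804 (-) for Ccnb2. Capitals mark matches on either strand to the core of the cell cycle homology region (TTTGAA or TTCGAA, the latter its own reverse complement), to the CCAAT box (CCAAT) or to an E2F element (TTTGGCGC, TTTCGCGC, TTTCCCGC or TTTGGCGG).
E2f2, first start: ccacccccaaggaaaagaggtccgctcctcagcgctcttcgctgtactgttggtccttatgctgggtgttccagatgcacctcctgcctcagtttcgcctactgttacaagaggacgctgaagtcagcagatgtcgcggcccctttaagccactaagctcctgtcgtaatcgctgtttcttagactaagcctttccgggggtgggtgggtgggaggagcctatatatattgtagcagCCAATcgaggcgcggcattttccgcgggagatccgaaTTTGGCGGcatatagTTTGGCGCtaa
E2f2, second start: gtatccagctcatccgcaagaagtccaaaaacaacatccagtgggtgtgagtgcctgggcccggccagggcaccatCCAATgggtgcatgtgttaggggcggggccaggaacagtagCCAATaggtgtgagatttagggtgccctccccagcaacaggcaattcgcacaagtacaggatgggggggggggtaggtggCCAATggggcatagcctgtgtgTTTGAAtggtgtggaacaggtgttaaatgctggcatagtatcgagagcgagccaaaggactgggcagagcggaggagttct
Nusap1: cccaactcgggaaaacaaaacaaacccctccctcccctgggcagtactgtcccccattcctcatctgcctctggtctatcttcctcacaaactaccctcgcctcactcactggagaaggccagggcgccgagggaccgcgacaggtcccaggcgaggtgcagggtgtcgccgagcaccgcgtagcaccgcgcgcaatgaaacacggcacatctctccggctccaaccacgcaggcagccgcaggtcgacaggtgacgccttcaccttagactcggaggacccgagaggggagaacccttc
Ube2c: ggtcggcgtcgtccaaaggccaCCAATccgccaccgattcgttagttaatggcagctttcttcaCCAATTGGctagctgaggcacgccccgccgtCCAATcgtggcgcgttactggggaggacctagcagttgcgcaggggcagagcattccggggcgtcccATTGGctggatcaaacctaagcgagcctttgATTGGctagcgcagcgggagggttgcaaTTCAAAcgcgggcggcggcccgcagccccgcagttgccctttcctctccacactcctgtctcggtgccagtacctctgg
Ccnb2: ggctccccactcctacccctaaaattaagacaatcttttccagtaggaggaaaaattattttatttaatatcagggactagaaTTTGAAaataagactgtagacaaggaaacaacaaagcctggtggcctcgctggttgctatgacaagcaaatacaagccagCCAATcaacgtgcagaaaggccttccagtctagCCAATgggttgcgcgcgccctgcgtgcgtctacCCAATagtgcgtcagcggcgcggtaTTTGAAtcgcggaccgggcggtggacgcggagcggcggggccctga
The Nusap1 window held none of these letters. Ube2c held 1 homology region core and 6 CCAAT boxes, of which a pair on opposite strands overlap. The first E2f2 window held 1 CCAAT box and 2 E2F elements, and the second held 1 homology region core and 3 CCAAT boxes. Ccnb2 held 2 cores and 3 CCAAT boxes. Over the list, 43 of the 50 genes had a window, 4 of them with 2 windows. A homology region core was found in 24 of the 43 genes, and in 19.2% of all 32851 windows in the RefSeq table. A CCAAT box was in 33 of 43 genes and 37.4% of all windows, an E2F element in 8 of 43 and 2.37%, and a core together with a CCAAT box in 24 of 43 and 7.52%. The shares for genes with 2 windows count a match in either. A match describes the letters only.

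At 6 h after the last dose, E2f2, Nusap1 and Ube2c were higher than in vehicle and no gene of the list was called lower. With TMM scaling all 3 were between 3 and 5 times their vehicle level, and the other 47 were not called. Calls numbered 3 of 50 (6%), beside 4.84% of all 13384 genes called at 6 h, with 4.06% called higher and 0.785% lower. At an unadjusted p under 0.05 there were 10 of 50, beside 19.6% of all genes. The count of calls alone is thus near the share over all genes. With library totals as the scaling the same 3 were called higher, by log2 1.16 for E2f2, 1.75 for Nusap1 and 1.58 for Ube2c. Calls over all genes then went from 543 higher and 105 lower to 344 higher and 1488 lower.

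The vehicle libraries held 186, 200.03 and 216 CPM of E2f2, those of 1 h held 276, 331 and 351, those of 6 h held 590.4, 584 and 670.0, and those of 24 h held 89.8, 137 and 327. The 6 h libraries lay above all 9 others, the 1 h libraries lay above all vehicle libraries, and the 24 h libraries ran from below vehicle to the 1 h range. E2f2 rose 3.07-fold at 6 h (log2 1.62, SE 0.33, edgeR adjusted p = 0.0139). That call was lost without vehicle replicate 1 (adjusted p = 0.0718), vehicle replicate 2 (0.0683) or 6 h replicate 3 (0.0519).

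Nusap1 stood at 138, 164 and 183 CPM in vehicle, 326, 406 and 329 at 1 h, 715, 685 and 824 at 6 h, with 94.9, 210.2 and 428 at 24 h. Its groups followed the same order, with 6 h above all other libraries and 1 h above vehicle. Nusap1 rose 4.59-fold at 6 h (log2 2.20, SE 0.36, edgeR adjusted p = 0.00383), a call kept with each of the 12 libraries left out in turn. An opposite-strand neighbour, Oip5, overlaps it and held 0.466 to 3.81 CPM. The sources used here do not say whether counting used the strand.

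Ube2c stood at 81.4, 89.2 and 121 CPM in vehicle, 157, 194 and 159 at 1 h, 391, 379.6 and 420.5 at 6 h, with 74.9, 109 and 238 at 24 h. Again the 6 h libraries were above all others and the 1 h libraries above vehicle. Ube2c rose 4.09-fold at 6 h (log2 2.03, SE 0.31, edgeR adjusted p = 0.00243), and this call too was kept with each library left out.

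**Figure D2:**
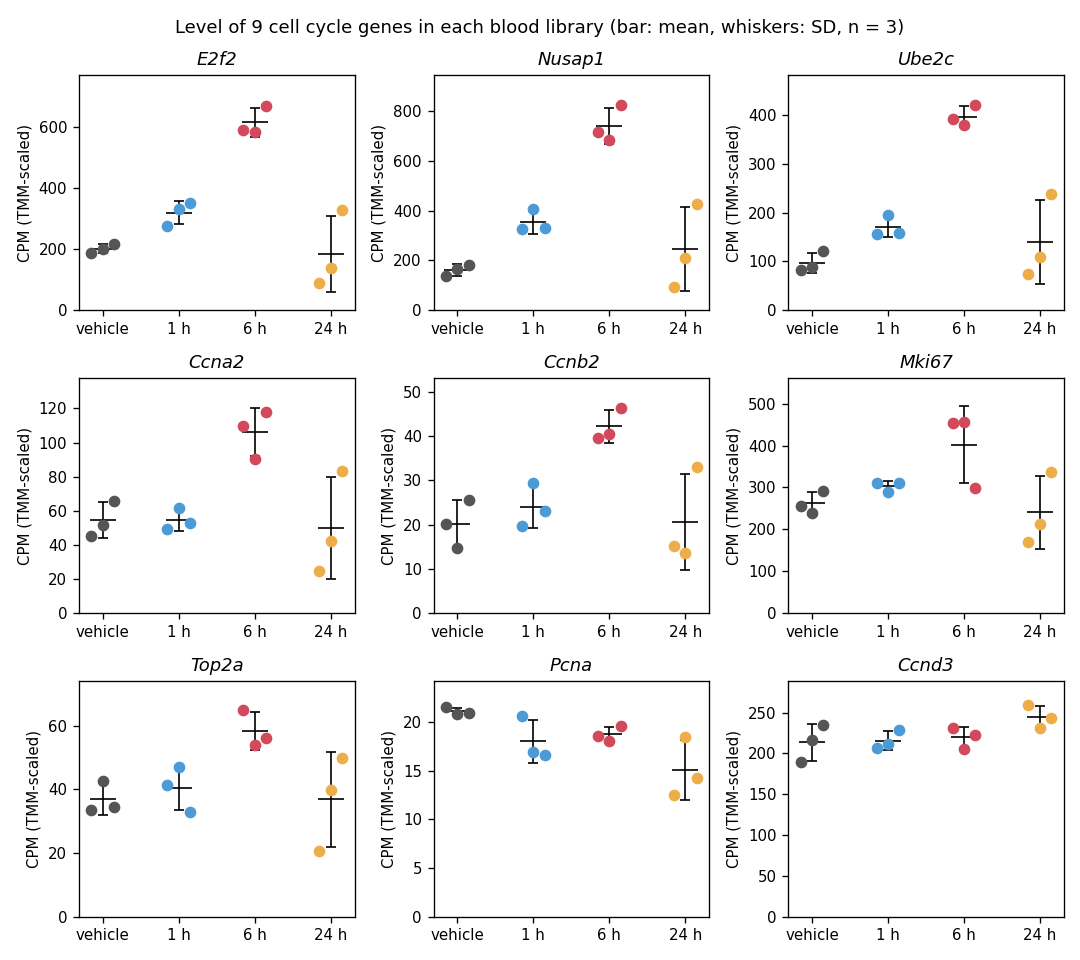
CPM of 9 genes in each library by group on linear axes from 0, with points for libraries, bars for the mean and whiskers for the SD (n = 3). The 6 h points of E2f2, Nusap1 and Ube2c lie above all others, those of Ccnd3 overlap vehicle, and the 24 h points are the most spread in most of the genes shown.

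The mitotic cyclins came next at 6 h without passing the test. Ccnb2 stood at 20.2, 14.8 and 25.4 CPM in vehicle and 39.6, 40.5 and 46.4 at 6 h (log2 1.07, SE 0.30, edgeR adjusted p = 0.0592). Ccna2, cyclin A2, stood at 45.4, 51.9 and 65.9 CPM in vehicle and 109.6, 90.5 and 118 at 6 h (log2 0.96, SE 0.31, edgeR adjusted p = 0.0989). With library totals the log2 differences were 0.61 for Ccnb2 and 0.51 for Ccna2. For both cyclins every 6 h library lay above every vehicle library, and the 1 h and 24 h libraries overlapped vehicle. The opposite-strand gene Exosc9 overlaps Ccna2, at 2.59 to 8.06 CPM.

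Other members of the cyclin role differed little or were too variable to tell. Ccnd3 stood at 189, 217 and 235 CPM in vehicle, 206, 212 and 229 at 1 h, 231, 206 and 222 at 6 h, with 259, 231 and 243 at 24 h. Its log2 difference at 6 h was 0.04 (SE 0.14), turning to -0.42 with library totals and to -0.062 without vehicle replicate 1, and none of these passed. Cdk1 stood at 2.21, 2.47 and 3.31 CPM in vehicle, 1.09, 7.07 and 1.51 at 1 h, 2.99, 2.97 and 3.47 at 6 h, with 1.51, 2.17 and 0.313 at 24 h. With 258 Cdk1 counts over all 12 libraries, its 6 h difference of 0.24 (SE 0.65; -0.21 with library totals) was not detectable. Ccnb1 (cyclin B1) and Ccne1 (cyclin E1), at 390 and 218 counts in all, were not called in any comparison either.

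The transcription factors other than E2f2 were far lower and did not pass at 6 h. E2f1 stood at 2.91, 2.47 and 2.67 CPM in vehicle, 1.77, 2.17 and 1.51 at 1 h, 1.79, 4.08 and 3.34 at 6 h, with 3.03, 1.73 and 1.41 at 24 h. The 1 h libraries of E2f1 all lay below vehicle, while its 6 h libraries lay on both sides, with a log2 difference of 0.20 (SE 0.42; -0.25 with library totals and -0.054 without 6 h replicate 2). Foxm1 had a mean of 8.62 ± 4.00 CPM in vehicle and 13.5 ± 3.28 at 6 h (SD, n = 3), E2f8, an E2F repressor, 12.7 ± 4.01 and 12.6 ± 7.87, and Mybl2 2.38 ± 0.255 and 1.89 ± 0.512.

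The replication genes as a group lay near the median gene at 6 h. Of 10, 4 had a log2 fold change above 0 and the group's median was -0.08, with no call; with library totals 1 of 10 was above 0 and the median was -0.54, against -0.50 for all genes. Pcna stood at 21.5, 20.9 and 20.9 CPM in vehicle, 20.6, 16.9 and 16.6 at 1 h, 18.5, 18.1 and 19.5 at 6 h, with 12.5, 18.4 and 14.2 at 24 h. Every treated library was below every vehicle library, by log2 differences of -0.23 at 1 h, -0.17 at 6 h and -0.49 at 24 h, none of which passed (edgeR adjusted p = 0.913, 0.667 and 0.510). Mcm2 stood at 2.91, 4.08 and 3.05 CPM in vehicle, 3.13, 2.85 and 3.12 at 1 h, 2.99, 4.83 and 5.14 at 6 h, with 4.08, 4.66 and 7.34 at 24 h. Its groups overlapped at 6 h, where the log2 difference was 0.37 (SE 0.34; -0.085 with library totals). The licensing factor Cdc6 was the member of this role with 6 h libraries all above vehicle, at 11.8, 7.30 and 9.51 CPM beside 7.09, 6.56 and 7.13 (log2 0.46, and -0.0036 with library totals). The other helicase subunits Mcm3 to Mcm7, the loader Cdt1 and Gins2, a subunit of the GINS complex, had log2 differences between -0.48 for Gins2 and 0.49 for Mcm6.

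The 4 enzymes of nucleotide synthesis showed no call in any comparison. Their log2 differences at 6 h ran from -0.38 for thymidine kinase (Tk1) to 0.40 for Tyms, with 2 of 4 above 0. With library totals 0 of 4 were above 0, with a median of -0.37 and Tyms at -0.038.

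Mitotic kinases and checkpoint genes were mostly above the median gene at 6 h, with 8 of 9 log2 fold changes above 0, a median of 0.43 and no call (3 of 9 above 0 and a median of -0.03 with library totals). The checkpoint kinase-like protein Bub1b stood at 24.8, 26.1 and 26.5 CPM in vehicle, 17.0, 17.7 and 14.2 at 1 h, 44.5, 36.3 and 46.7 at 6 h, with 9.90, 17.9 and 43.8 at 24 h. Its 1 h libraries were all below vehicle and its 6 h libraries all above it (log2 0.72 at 6 h, SE 0.36, edgeR adjusted p = 0.294). With library totals this log2 difference was 0.26. Plk1, the Polo-like mitotic kinase, was the exception in direction, at 0.581, 1.18 and 1.78 CPM in vehicle and 0.149, 0.371 and 0.514 at 6 h. Those 6 h values rest on 8 counts in all, and the log2 difference of -1.70 (SE 0.76, edgeR adjusted p = 0.206) did not pass. Aurora A (Aurka) had 6 h libraries of 5.53, 3.47 and 3.98 CPM, all above 2.44, 2.90 and 3.18 in vehicle. Aurkb, Ttk, Bub1, Mad2l1, Birc5 and Cdca8 had overlapping 6 h and vehicle libraries.

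Genes of the spindle, midzone and chromosome structure showed the most separation at 6 h, with 6 of 10 having every 6 h library above every vehicle library (60%, beside 15.8% of all genes) and a median log2 fold change of 0.64 (0.18 with library totals). They were Nusap1, Mki67, Top2a, Kif23, Prc1 and Tpx2, and of these only Nusap1 was called. Mki67 stood at 255, 238 and 293 CPM in vehicle, 310.3, 289 and 310.2 at 1 h, 453, 456 and 298 at 6 h, with 171, 214 and 337 at 24 h. Its 6 h replicate 3 lay just above the highest vehicle library, and the difference of 0.62 (SE 0.23) did not pass (edgeR adjusted p = 0.154). Top2a, topoisomerase II alpha, stood at 33.5, 42.7 and 34.6 CPM in vehicle, 41.4, 47.0 and 33.0 at 1 h, 65.1, 53.8 and 56.2 at 6 h, with 20.6, 40.0 and 50.01 at 24 h. For Top2a the 6 h libraries exceeded all 9 others, with a difference of 0.66 (SE 0.26, edgeR adjusted p = 0.169). The midzone motor Kif23 differed by 0.68, Prc1 by 1.02 and the spindle assembly factor Tpx2 by 0.74, also without passing. With library totals the differences were 0.17 for Mki67, 0.20 for Top2a, 0.22 for Kif23, 0.56 for Prc1 and 0.29 for Tpx2. The motors Kif11 and Kif20a, Racgap1 of the midzone and the hyaluronan receptor Hmmr, which binds spindle microtubules, had overlapping 6 h and vehicle libraries.

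In the remaining roles at 6 h, Ube2c was called, while the anaphase-promoting complex activator Cdc20 and Cdca3 had log2 differences of -0.30 and 0.06 (-0.74 and -0.40 with library totals). The 3 centromere genes ranged from -0.06 for Cenpa to 0.40 for Cenpe, while with library totals 0 of 3 were above 0 and Cenpe stood at -0.053. Over the whole list at 6 h, 34 of 50 log2 fold changes were above 0 (68%, beside 46.3% of all genes), with a median of 0.21 beside -0.04. That median was 0.10 without 6 h replicate 1, 0.14 without vehicle replicate 1 and 0.32 without 6 h replicate 2. With library totals 15 of 50 were above 0 and the median was -0.24 beside -0.50. Libraries did not overlap between groups for 13 genes higher at 6 h (26%, beside 15.8% of all genes) and 2 lower, Pcna and Plk1 (4%, beside 13.5%).

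**Figure D3:**
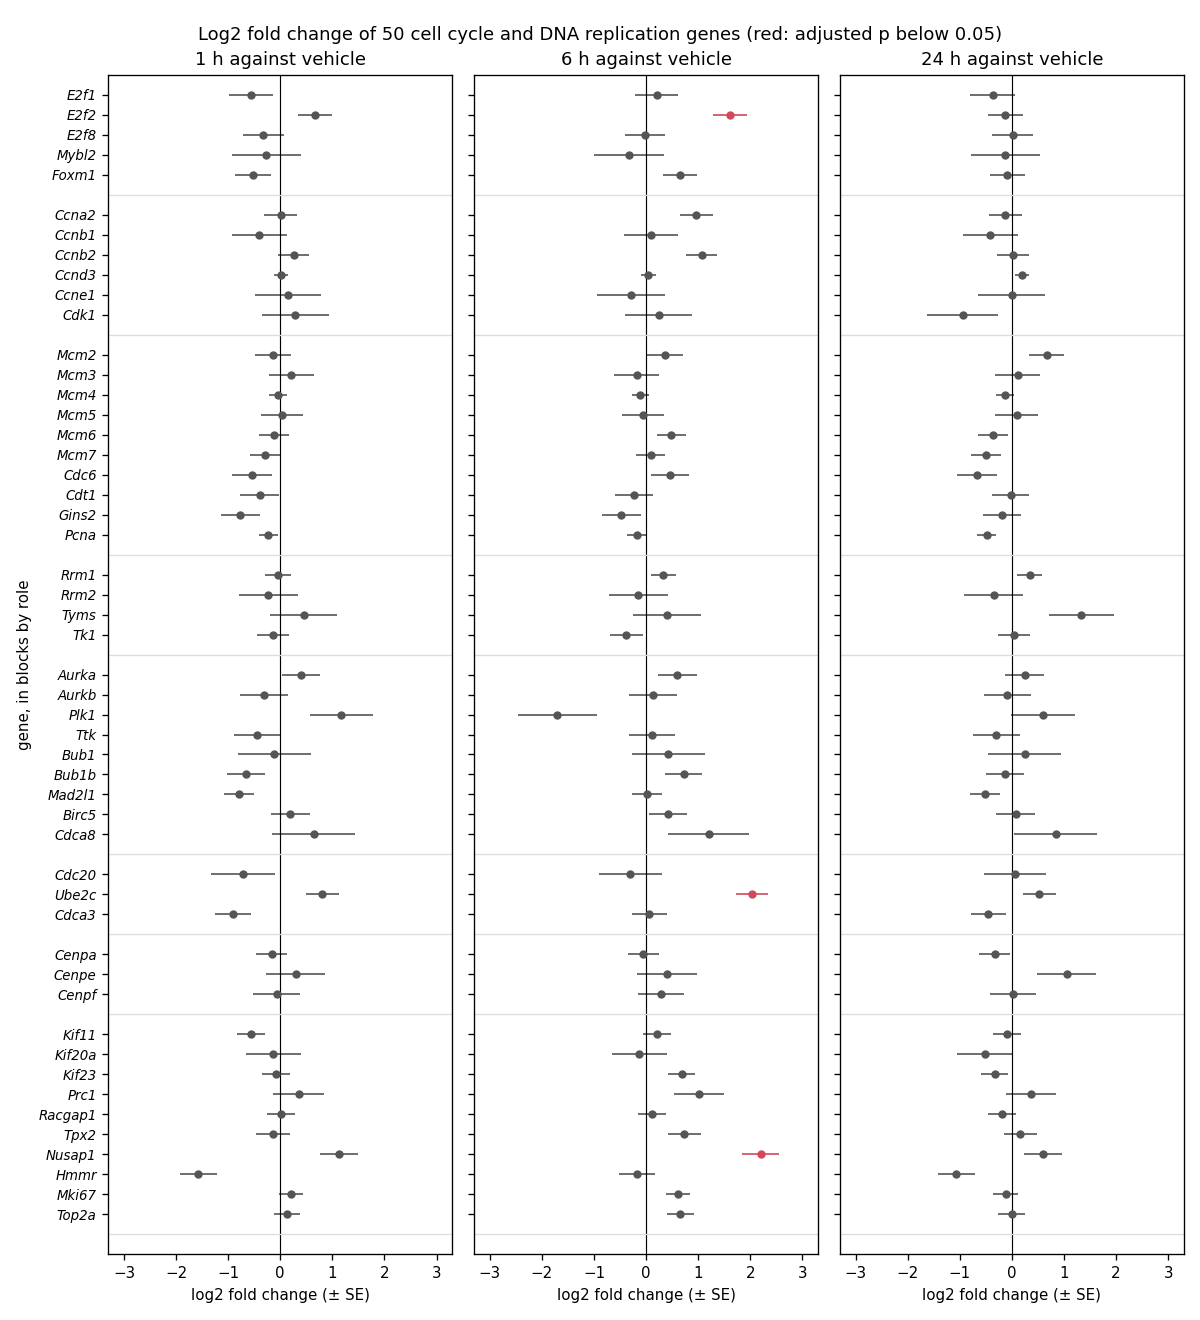
Log2 fold change of each of the 50 genes against vehicle, with SE, in 1 panel for each time, in blocks by role, and in red where the edgeR adjusted p was below 0.05. Red points occur at 6 h alone, for E2f2, Ube2c and Nusap1, and the points of the last block lie mostly right of 0 at 6 h.

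At 1 h after the last dose, no gene of the list was called against vehicle (0 of 50, beside 0.194% of all genes called, 0.179% higher and 0.0149% lower). At an unadjusted p under 0.05 there were 5 (beside 6.99% of all genes). Here limma-voom called 0 (beside 0.127%) and DESeq2 called 1 (beside 1.14%). Hmmr had the smallest p. It stood at 12.7, 11.9 and 12.9 CPM in vehicle, 5.04, 4.11 and 3.45 at 1 h, 7.62, 16.8 and 8.61 at 6 h, with 3.49, 8.56 and 5.78 at 24 h. All 1 h and all 24 h libraries of Hmmr lay below vehicle, and the 6 h libraries lay on both sides. The log2 difference at 1 h was -1.57 (SE 0.35, edgeR adjusted p = 0.111), passing in DESeq2 (0.00690) and not in limma-voom (0.114). Nusap1 (1.13, SE 0.36, adjusted p = 0.370) and Mad2l1, a checkpoint protein, were next. Mad2l1 stood at 8.72, 10.9 and 12.3 CPM in vehicle and 7.22, 5.59 and 5.60 at 1 h, with no overlap (log2 -0.80, SE 0.29, edgeR adjusted p = 0.491). Groups did not overlap for 4 genes that were higher at 1 h (8% beside 8.92% of all genes), namely E2f2, Nusap1, Plk1 and Ube2c. Likewise 8 were lower without overlap (16% beside 8.44%), namely Bub1b, Cdca3, E2f1, Gins2, Hmmr, Kif11, Mad2l1 and Pcna. The median over the list was -0.12, beside -0.02 for all genes, with 20 of 50 above 0 (40% beside 47.8%). It was -0.25 without 1 h replicate 2 and -0.00015 without 1 h replicate 3 (25 of 50 above 0), and -0.067 and -0.051 without vehicle replicates 2 and 3.

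At 24 h after the last dose no gene of the list was called against vehicle (0 of 50, beside 0.105% of all genes). There were 2 at an unadjusted p under 0.05 (beside 8.37%), and both limma-voom and DESeq2 called 0 (beside 0.0523% and 0.620%). The list's median was -0.09, beside 0.01 for all genes, with 21 of 50 above 0 (42% beside 50.8%). The median turned to 0.092 without 24 h replicate 1 (28 of 50 above 0). It was -0.31 without 24 h replicate 3 (12 of 50), -0.041 without 24 h replicate 2, and -0.15 and -0.0087 without vehicle replicates 1 and 3. The smallest p-values in edgeR were those of Hmmr (log2 -1.06, adjusted p = 0.444), Pcna (-0.49, adjusted p = 0.510) and Tyms (1.33, adjusted p = 0.610). Tyms stood at 1.51, 1.93 and 3.31 CPM in vehicle, 0.953, 5.82 and 2.37 at 1 h, 2.99, 3.09 and 2.83 at 6 h, with 2.79, 2.92 and 11.6 at 24 h. Its 24 h mean rests on replicate 3, and without that library the log2 difference was 0.35. Groups did not overlap for 1 gene higher, Cdca8 (2% beside 6.34%), and 6 lower, Cdc6, Cdk1, Hmmr, Mcm4, Mcm7 and Pcna (12% beside 5.61%). E2f2, Nusap1 and Ube2c differed from vehicle by -0.12, 0.60 and 0.53, and the signs of all 3 depended on single 24 h libraries. Without 24 h replicate 3, Nusap1 stood at -0.083 and Ube2c at -0.085, and E2f2 stood at 0.20 without replicate 1 and 0.054 without replicate 2.

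Between the treated groups, E2f2, Nusap1 and Ube2c fell from 6 h to 24 h and no gene of the list was called higher. The log2 differences at 24 h against 6 h were -1.74 for E2f2 (SE 0.33, edgeR adjusted p = 0.0296), -1.50 for Ube2c (SE 0.31, adjusted p = 0.0377) and -1.60 for Nusap1 (SE 0.36, adjusted p = 0.0452). The 3 calls are 6% of the list, beside 1.76% of all genes called, 0.508% higher and 1.25% lower, and the 24 h libraries of all 3 genes lay below all their 6 h libraries. With 1 library left out, the number of members called was 2 without vehicle replicate 1 (beside 0.967% of all genes) and 1 without vehicle replicate 3 (beside 0.711%). It was 13 without 24 h replicate 3 (26% beside 15.9%) and 0 without any of the other 9 libraries (beside 0% to 0.457%). In a fit of the 6 h and 24 h groups alone it was 0, where 0% of the 12315 genes then tested were called. With library totals Ccnd3 and Plk1 were called higher at 24 h in addition to the 3 called lower, and calls over all genes went from 68 higher and 167 lower to 2692 higher and 259 lower. At an unadjusted p under 0.05 there were 14 of 50, beside 22.1% of all genes. The list had 15 of 50 log2 fold changes above 0 (30% beside 52.6%) and a median of -0.35, beside 0.04 for all genes, of 0.10 beside 0.56 with library totals, of -0.17 without 24 h replicate 1, of -0.18 without 6 h replicate 1 and of -0.65 without 24 h replicate 3. Groups did not overlap for 10 genes lower at 24 h (20% beside 12%), namely Ccna2, Ccnb2, Cdc6, Cdk1, E2f2, Kif23, Mcm6, Nusap1, Top2a and Ube2c, and for 3 higher, Ccnd3, Plk1 and Tk1 (6% beside 10.5%).

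From 1 h to 6 h no gene was called (0 of 50, beside 0.493% of all genes), although 16 had an unadjusted p under 0.05 (beside 20.7%). There limma-voom called 0 (beside 0.493%) and DESeq2 5 (beside 5.54%). The smallest p-values were those of Plk1, Hmmr and Ube2c. Plk1 stood at 2.45, 3.19 and 2.37 CPM at 1 h and 0.149, 0.371 and 0.514 at 6 h, with 0.582, 3.03 and 1.72 at 24 h. Its 6 h libraries were below all the other 9, with a log2 difference from 1 h of -2.87 (SE 0.74, edgeR adjusted p = 0.0754). Hmmr differed by 1.40 (SE 0.36, adjusted p = 0.0811) and Ube2c by 1.22 (SE 0.31, adjusted p = 0.0811). In this comparison 41 of 50 log2 fold changes were above 0 (82%, beside 50.1% of all genes) with a median of 0.41 beside 0.00 (0.26 without 1 h replicate 3), but 23 of 50 were above 0 with library totals, where the medians were -0.03 and -0.43. Groups did not overlap for 14 genes higher at 6 h (28% beside 18.1%) and 1 lower, Plk1 (2% beside 13.8%). From 1 h to 24 h no gene was called (beside 0.0224% of all genes), and 2 had an unadjusted p under 0.05 (beside 6.11%). Above 0 were 26 of 50 (52% beside 52.3%), and neither limma-voom nor DESeq2 called any (beside 0.0374% and 0.202%). Mcm2 differed by 0.81, E2f2 by -0.80 (both adjusted p = 0.794 in edgeR) and Cdk1 by -1.23 (adjusted p = 0.896), the last turning to 0.067 without 1 h replicate 2. Between 1 h and 24 h, 2 genes did not overlap and were higher at 24 h, Ccnd3 and Mcm2 (4% beside 5.64%), and 0 were lower (0% beside 4.74%). The comparisons with vehicle share their 3 control libraries, and the comparisons between times share treated ones.

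**Figure D4:**
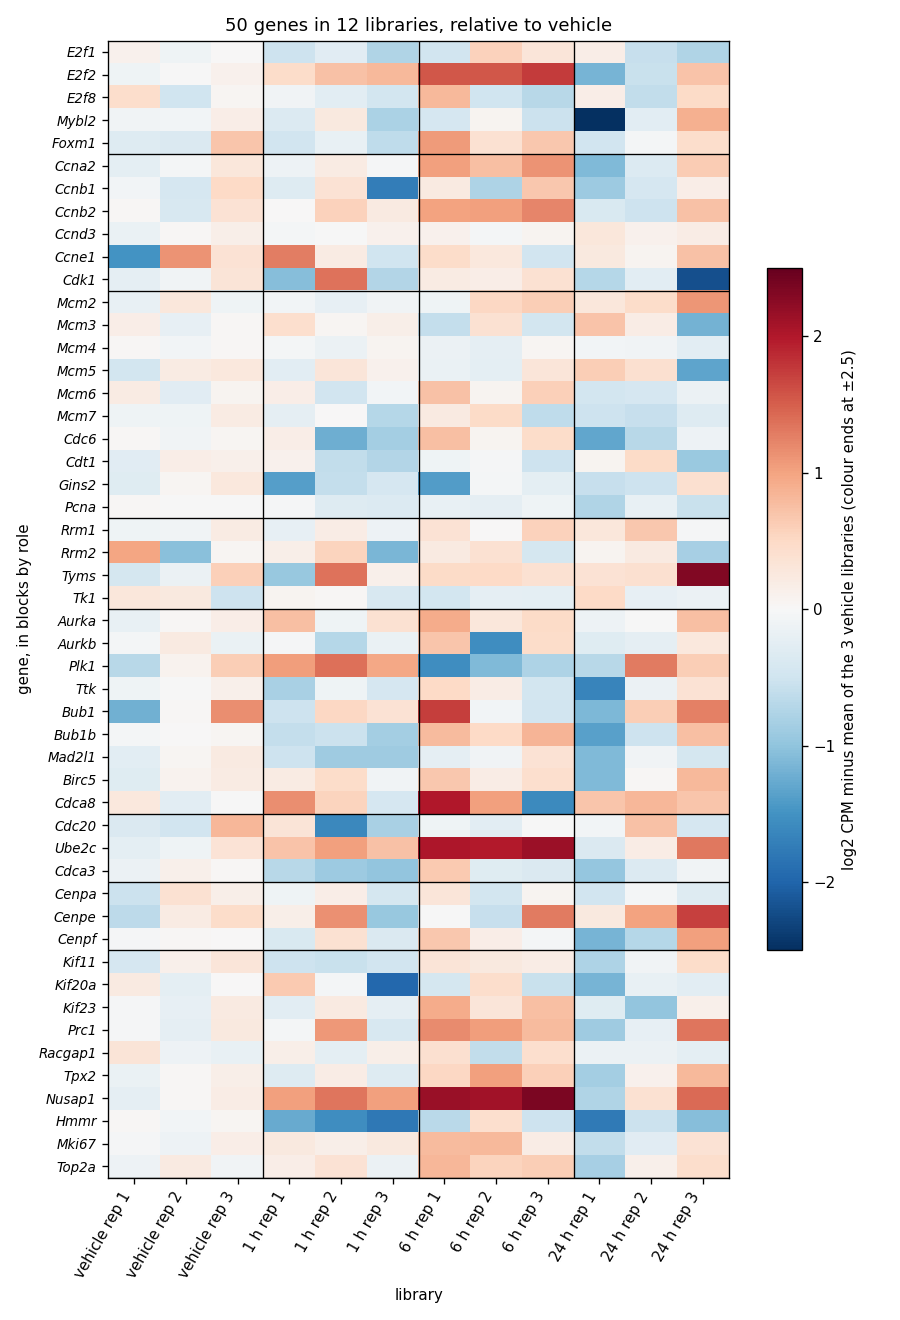
Log2 CPM of the 50 genes (rows, in blocks by role) in the 12 libraries (columns), each minus the gene's mean over the 3 vehicle libraries, with colour ending at 2.5 on either side. E2f2, Nusap1 and Ube2c are high in all 6 h libraries, and in the 24 h columns replicate 1 is the lowest for 32 genes and replicate 3 the highest for 31.

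The spread of the 24 h group entered every comparison, because the model fitted to all 12 libraries shares its estimate of spread. A fit without the 24 h libraries, an alternative chosen after seeing the data, called more genes. At 1 h against vehicle it called E2f2 (0.69), Nusap1 (1.15) and Ube2c (0.82) higher and Hmmr (-1.56) lower, beside 1.86% of the 13116 genes then tested, 1.65% higher and 0.206% lower. At 6 h against vehicle it called 10 genes higher (20% beside 8.78%) and 0 lower (beside 3.74%), where 12.5% of all genes were called. Those 10 were the 3 genes above with Ccna2 (0.94), Ccnb2 (1.04), Bub1b (0.70), Top2a (0.64), Mki67 (0.60), Tpx2 (0.72) and Kif23 (0.66), for which the adjusted p ran from 0.00185 for Ccna2 to 0.0498 for Kif23. Leaving out 24 h replicate 1 or 24 h replicate 3 by itself also raised the counts. At 1 h against vehicle 2 members were then called in either case (beside 0.910% and 1.17% of all genes), at 6 h against vehicle 6 and 7 (beside 8.63% and 8.99%), and at 6 h against 1 h 9 and 12 (beside 7.21% and 9.12%). Without 24 h replicate 3, E2f2, Nusap1 and Ube2c were also called at 24 h against 1 h, all lower (beside 1.46% of all genes). At 6 h against 1 h the fit without the group called 11 higher (beside 8.26%) and Plk1 lower (beside 4.76%), where 13% of all genes were called.

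In whole blood a change in the number of cells of a type and a change in RNA per cell cannot be told apart. Markers of red cell precursors, taken as a mean, were highest at 6 h like the 3 called genes. Of 18 reticulocyte and erythroid markers, 11 were called higher at 6 h against vehicle (beside 4.06% of all genes) and 7 lower at 24 h against 6 h (beside 1.25%). Their summed CPM ranged from 48022 to 54920 for vehicle libraries, from 52726 to 61907 for 1 h, from 86483 to 100723 for 6 h and from 26677 to 76353 for 24 h, and none of them was at 0 in all libraries. Averaged over the 18, log2 CPM came to 7.91, 7.93 and 8.15 for the vehicle libraries, 8.63, 8.68 and 8.54 for those of 1 h, 9.55, 9.40 and 9.34 for those of 6 h, and 7.30, 7.95 and 8.96 for those of 24 h. In this mean, as for E2f2, Nusap1 and Ube2c, every 6 h library lay above all others and every 1 h library lay above vehicle. Replicates 1 and 3 were the lowest and highest 24 h libraries for the marker mean and for the 3 genes. Single markers were split at 1 h. For Alas2, Rhag, Fech, Klf1, Tfrc and Hemgn the 1 h libraries overlapped vehicle, as did the summed CPM. Those of Ermap lay below vehicle, and those of the other markers above it. In Pcna and Ccnd3 the 6 h libraries were not above the others.

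Of 7 transcription regulators of erythroblasts, 5 were called higher at 6 h (beside 4.06% of all genes). Gata1 and Klf1 are in this list and also among the 18 markers above. The summed level of the 7 was 451 to 513 CPM in vehicle, 509 to 559 at 1 h and 919 to 1000.3 at 6 h. Of 9 stem and progenitor genes, 7 were tested and 3 were called higher at 6 h (beside 4.06%), at 55.8 to 61.9 CPM in vehicle and 101 to 154 at 6 h. The 5 promyelocyte genes summed to between 3.88 and 11.96 CPM over the 12 libraries, and of the 3 that were tested none was called. Of 6 neutrophil secondary granule genes 1 was called higher at 6 h (beside 4.06%), at 1568 to 4036 CPM in vehicle and 2308 to 4782 at 6 h. Of 6 monocyte genes 1 was called lower at 6 h (beside 0.785%), and none was called of 7 mature neutrophil, 6 platelet and 6 NK cell genes. The part of these cell types in the results was not tested.

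**Figure D5:**
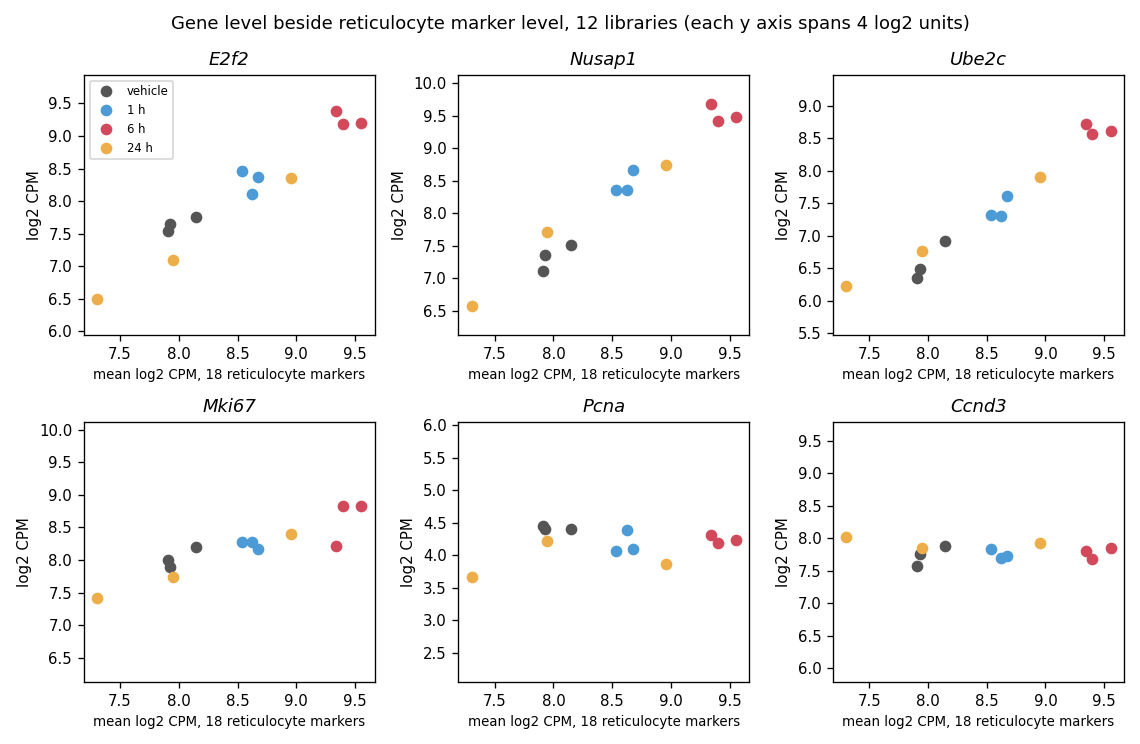
Log2 CPM of 6 genes (y, each axis spanning 4 log2 units) against the mean log2 CPM of 18 reticulocyte and erythroid markers (x) in the 12 libraries, coloured by group. For E2f2, Nusap1 and Ube2c the 6 h libraries lie at the upper right and the lowest 24 h library at the lower left, while Ccnd3 stays level.

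A wider list of 86 further cell cycle genes, of which 82 were tested, held 2 genes called higher at 6 h against vehicle and 0 called lower, beside 4.06% and 0.785% of all genes. Its median there was 0.26. Fzr1, the Cdh1 activator of the anaphase-promoting complex, stood at 53.5, 73.0 and 84.4 CPM in vehicle, 141, 177 and 152 at 1 h, 344, 315 and 326 at 6 h, with 61.2, 88.1 and 162 at 24 h. It rose by 2.23 on the log2 scale (edgeR adjusted p = 0.000729), with 6 h above all other libraries. Cdc25b, a phosphatase that activates cyclin-dependent kinases, stood at 431, 423 and 459 CPM in vehicle, 820.2, 935 and 789 at 1 h, 1366, 1227 and 1313 at 6 h, with 397, 512 and 1032 at 24 h. It rose by 1.57 (edgeR adjusted p = 0.00465), and its 1 h libraries were also all above vehicle. At 24 h against 6 h, 2 of 82 were called lower (beside 1.25% of all genes). Fzr1 fell by 1.67 (edgeR adjusted p = 0.0207), and Ccnf, cyclin F, fell by 1.64 (adjusted p = 0.0447) from 15.4, 11.1 and 11.6 CPM to 3.38, 3.14 and 5.78. In an edgeR fit of those 2 groups alone neither passed (adjusted p = 0.194 for both), where 0% of all genes were called. With 1 library left out in turn the call was lost in 5 of 12 fits for Fzr1 and 10 of 12 for Ccnf. No gene of the wider list was called in the other 4 comparisons, where its median ran from -0.18 at 1 h to 0.51 at 6 h against 1 h. The opposite-strand gene Mfsd12 overlaps Fzr1, at 3.13 to 9.64 CPM.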

How the data were processed

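Whole blood RNA was extracted with a PAXgene kit and sequenced in read pairs on an Illumina HiSeq after ribosomal RNA depletion, per the labels' protocols. The authors deposited a table of whole-number counts per mouse gene, not scaled to library size. The submitters' processing notes name RSEM and the human build hg38, although the identifiers are mouse, and aligner, strand setting and handling of reads from the human tumour are not stated in the sources used. Column names were codes repeated in the sample titles, which gave the group and replicate, and 0 columns of per-sample values were unused.

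The main tool was edgeR 4.0.16 under R 4.3.3, with DESeq2 1.42.0 and limma 3.58.1 as alternatives. filterByExpr by group left 13384 of 55367 genes, with all 50 members among them. Libraries were scaled by TMM, quasi-likelihood models with 1 mean for each of the 4 groups were fitted over the 12 libraries, and 6 contrasts were tested with Benjamini-Hochberg adjustment over all genes tested. Single-gene SEs came from the same model, and log2 CPM used a prior count of 2. With 3 libraries against 3 an exact permutation test cannot go below p = 0.1, so none was used. Gene positions and exon lengths came from GENCODE M21 (55035 of 55367 identifiers matched).

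The members, roles, wider list and markers were chosen with earlier results of these data known. Values per library are given for every called member, for the 3 smallest p-values where none was called, and always for Mki67, Top2a, Pcna, Mcm2, E2f1, Ccnd3 and Cdk1. The highest and lowest member per length is named in each role, as is every called gene of the wider list. Members described beyond that rule were chosen after their values were seen. Of the wider list, Gins1, Gmnn, Cks1b and Pbk fell under the filter. Alternatives were other scalings, other filters, DESeq2, limma-voom, the compared groups alone, a replicate block, each library left out and, added after seeing the data, the 24 h group left out. The fitting code was tested on simulated data.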

Additional observations from a re-analysis of the deposited data

Results flagged for a closer look

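The difference between collection times was tested directly for each gene. It passed for 3 members at 24 h against 6 h (6%, beside 1.76% of all genes). These calls depended on the libraries used. With 1 library left out in turn the call was kept in 3 of 12 fits for E2f2, 2 of 12 for Ube2c and 1 of 12 for Nusap1. A fit of the 6 h and 24 h groups alone called 0 members and 0% of all genes. E2f2 differed by -1.74 on the log2 scale (edgeR adjusted p = 0.0296), having been 1.62 above vehicle at 6 h and -0.12 from vehicle at 24 h. Ube2c differed by -1.50 (adjusted p = 0.0377), from 2.03 at 6 h to 0.53 at 24 h. Nusap1 differed by -1.60 (adjusted p = 0.0452), from 2.20 at 6 h to 0.60 at 24 h. Both effects were measured against the same 3 vehicle libraries, so their difference equals that between the treated groups.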

How the results depend on the processing

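Numbers of members called moved most with how the 24 h libraries entered. The share of all genes called in the same fit, given in brackets, moved as well. At 1 h against vehicle, 0 members were called (0.194%), 3 with no filter on low counts (1.11%) and 1 with DESeq2 (1.14%). There were 4 with the compared groups alone (1.62%), 4 without the 24 h group (1.86%) and 0 to 2 with a library left out (0.0508% to 1.17%). At 6 h against vehicle, 3 were called (4.84%), 7 with no filter (4.89%) and 5 with DESeq2 (8.67%). There were 10 with the compared groups alone (11.1%), 10 without the 24 h group (12.5%) and 2 to 7 with a library left out (1.74% to 8.99%). At 24 h against vehicle every alternative gave 0 (0.00796% to 0.916%). At 6 h against 1 h, 0 were called (0.493%), 1 with library totals (5.04%), 11 with no filter (4.74%) and 5 with DESeq2 (5.54%). There were 12 with the compared groups alone (13.8%) and 12 without the 24 h group (13%). With a library left out, 0 to 12 were called (0.0289% to 9.12%). At 24 h against 6 h, 3 were called (1.76%), 5 with library totals (22.0%), 11 with no filter (5.71%) and 8 with DESeq2 (8.41%). There were 6 with limma-voom (5.45%), 0 with the compared groups alone (0%) and 0 to 13 with a library left out (0% to 15.9%). At 24 h against 1 h, 0 were called in all but the leave-one-out fits, which gave 0 to 3 (0% to 1.46%).

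Genes called over the whole table ranged over the alternatives from 7 to 288 at 1 h against vehicle, 239 to 1832 at 6 h, 1 to 237 at 24 h, 4 to 1720 at 6 h against 1 h, 0 to 2951 at 24 h against 6 h and 0 to 205 at 24 h against 1 h. With library totals at 6 h against vehicle, Mcm2 (-0.085), E2f1 (-0.25), Ccnd3 (-0.42) and Cdk1 (-0.21) turned negative. With a library left out in turn, the log2 fold change at 6 h against vehicle ran from -0.062 to 0.098 for Ccnd3 and from -0.054 to 0.47 for E2f1. At 24 h against vehicle it ran from -0.83 to 0.20 for E2f2, -0.085 to 0.83 for Ube2c and -0.083 to 0.98 for Nusap1, and at 24 h against 1 h from -1.75 to 0.067 for Cdk1 and -0.89 to 0.0071 for Ube2c. The cause was not tested.

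Replicate numbers were shared by the groups. Deviations of same-numbered libraries correlated at -0.11 to 0.16 over 18 pairs, and those of different numbers at -0.18 to 0.18 over 36 pairs. Of 12 libraries, 5 correlated best with their own number. With 3 libraries in a group these values cannot decide whether the samples were paired. With the replicate block 5 members were called at 24 h against 6 h, beside 3.12% of all genes. Against vehicle the block called 0 at 1 h (beside 0.284%), 4 at 6 h (beside 4.66%) and 0 at 24 h (beside 0.112%). Against 1 h it called 0 at 6 h (beside 0.508%) and 0 at 24 h (beside 0.00747%).

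Low counts limit Plk1, Cdca8, Cdc20, Mybl2, Ccne1, E2f1 and Cdk1, each with 148 to 258 counts over all 12 libraries, and no call among them in the fit reported.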
